A study of Mus musculus with 3 samples.

Results

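IG2 is the name the authors gave to a cluster of progenitor cells in mouse bone marrow, and the meaning of the name was not given in the sources used here. Its members are all cells that carry exactly this name in the deposited cluster list, 495 of 11132 cells. CITE-seq, which counts transcripts and antibody-bound DNA tags in the same cell, had been run on sorted marrow cells of wild-type C57BL/6 mice, labelled as modified GMP (granulocyte-monocyte progenitors in common usage). Hindlimb marrow had been enriched on CD117 beads before sorting. The gate, the age of the mice and the number of mice behind each library were not stated in the labels. The groups compared are clusters of untreated cells, present side by side in 1 female and 1 male mRNA library, and the antibody tags of both sexes were pooled in 1 further library.

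IG2 held 166 of 4336 female cells, which is 3.83% (exact 95% interval 3.28 to 4.44%), and 329 of 6796 male cells, which is 4.84% (4.34 to 5.38%). The other clusters used for comparison were Multi-Lin with 1752 cells, MP with 991, Mono with 1052 and Gran-1 with 2373. Values below are UMIs (unique transcript tags) of a gene per 1000000 UMIs of the summed cells, written as CPM, with the female library first. All intervals cover counting error only.

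Blood cell formation passes through progenitors that still express genes of several lineages at low levels. GFI1, a repressor needed for neutrophils, and IRF8, a factor needed for monocytes and dendritic cells, are known to act against each other in this choice. Myeloperoxidase (Mpo) and neutrophil elastase (Elane) are among the earliest granule proteins to be made, and CD34 marks immature progenitors. A progenitor with transcripts of both factors is therefore of interest at this branch point. The ability of IG2 cells to form either lineage was not measured in these data.

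The promoters of the 2 factor genes are printed here because the cluster is described by their joint presence. Both sequences are from RefSeq (GRCm38.p6, the assembly known as mm10) and cover 250 bases before to 50 bases after the start of the gene, 5′ to 3′ on the strand of the gene. Capitals mark AATC on either strand (read as GATT on the other), the core letters of the known GFI1 binding motif. The Gfi1 window is chr5:107725756-107726055 on the minus strand, and the gene spans chr5:107716655-107725805. The Irf8 window is chr8:120736108-120736407 on the plus strand, and the gene spans chr8:120736358-120756694.
Gfi1: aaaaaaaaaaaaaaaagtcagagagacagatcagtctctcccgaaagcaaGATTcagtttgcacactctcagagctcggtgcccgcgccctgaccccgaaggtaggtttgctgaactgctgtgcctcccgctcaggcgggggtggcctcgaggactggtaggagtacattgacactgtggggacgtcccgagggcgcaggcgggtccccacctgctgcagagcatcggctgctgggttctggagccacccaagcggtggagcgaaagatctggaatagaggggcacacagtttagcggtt
Irf8: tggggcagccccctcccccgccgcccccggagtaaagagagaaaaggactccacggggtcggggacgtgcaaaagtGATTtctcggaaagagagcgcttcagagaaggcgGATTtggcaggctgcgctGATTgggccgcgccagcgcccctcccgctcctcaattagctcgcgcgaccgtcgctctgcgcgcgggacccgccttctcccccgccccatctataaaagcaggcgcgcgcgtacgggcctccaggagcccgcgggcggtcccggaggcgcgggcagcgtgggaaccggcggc

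The Irf8 window held 3 matches to AATC, which begin 174, 140 and 122 bases before the start, all on the opposite strand, and the Gfi1 window held 1, 200 bases before the start. Such a match is common, since 73.1% of the 32851 promoters in the table hold one. The Irf8 window also held 2 matches to TTCNNNGAA, the known form of a STAT binding element, of which TTCTCGGAA begins 171 and TTCAGAGAA 153 bases before the start. The Gfi1 window held none, and 8.30% of all promoters do. The first of them shares 1 base with an AATC match and contains GGAA, the ETS core, which 96.0% of promoters hold. These are matches of letters, and binding was not measured.

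The 4 genes by which the cluster is described were all present in IG2. Gfi1 was at 33.3 and 32.3 CPM, Irf8 at 144 and 138 CPM, Cd34 at 204 and 184 CPM, and Mpo at 7027 and 7314 CPM. Neither of the factor genes was at its highest in these cells. Of 17 clusters ordered by Gfi1, Gran-2 (109 CPM, mean of the libraries), Gran-1 (70.1) and Myelo-1 (63.8) stood above IG2. HSCP-1, a cluster of 24 cells, was at 33.4 ± 9.28 CPM (SD, n = 2), which could not be told apart from the 32.8 ± 0.717 of IG2. Multi-Lin followed at 25.1 ± 0.791 CPM. For Irf8 the order was led by DC, cMoP, Mono, MDP and MP. HSCP-1 came next at 157 ± 144 CPM, a spread that covers the 141 ± 4.09 of IG2, and Multi-Lin lay below at 66.9 ± 4.86.

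**Figure D1:**
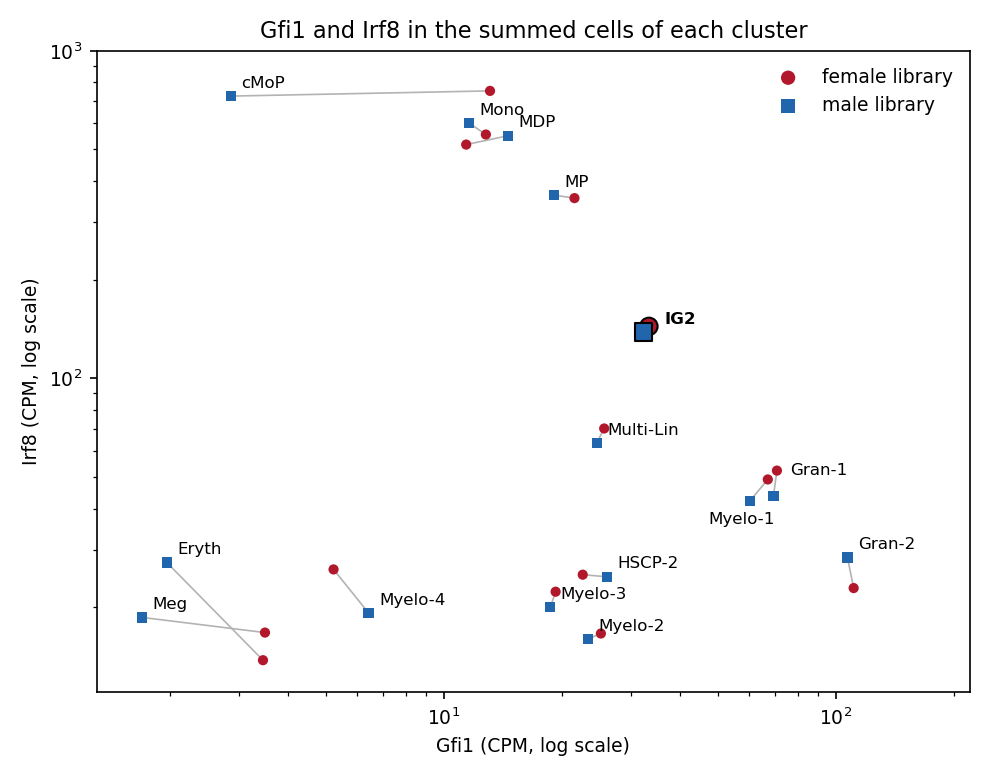
Gfi1 (horizontal) and Irf8 (vertical) in CPM, both on log scales, for the summed cells of 15 clusters in the female (circles) and male (squares) library, joined by a grey line; DC and HSCP-1, with under 40 cells each, are left out. IG2, outlined in black, lies at 33.3 and 32.3 for Gfi1 and 144 and 138 for Irf8, between Gran-1 at the right and MP, MDP and Mono at the top.

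Each neighbour of IG2 had less of one factor and more of the other, except Multi-Lin, which had less of both. Sums per cluster and library were compared with edgeR's quasi-likelihood test, with Benjamini-Hochberg adjustment over 11459 genes and a threshold of 0.05. The clusters are the authors' own, made by a method that was not given in the sources used here, so these differences only describe how the clusters differ and cannot serve as evidence for them. All comparisons below share the IG2 sums.

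Against Multi-Lin (Gfi1 25.6 and 24.5 CPM, Irf8 70.3 and 63.4 CPM), Gfi1 was higher in IG2 by 0.51 on the log2 scale (SE 0.09, adjusted p = 3.1e-05) and Irf8 by 1.20 (SE 0.07, adjusted p = 4.5e-16). Against MP (21.5 and 19.1 CPM of Gfi1), Gfi1 was higher by 0.65 (SE 0.10, adjusted p = 5.0e-06). Irf8, at 355 and 363 CPM in MP, was lower in IG2 by a log2 value of -1.42 (SE 0.06). Mono held 12.8 and 11.6 CPM of Gfi1 and 555 and 602 CPM of Irf8, and the log2 differences of IG2 from it were 1.35 (SE 0.11) and -2.13 (SE 0.05). In Gran-1, Gfi1 stood at 70.8 and 69.3 CPM and Irf8 at 52.3 and 43.7 CPM, and the differences were -1.20 (SE 0.07) for Gfi1 and 1.46 (SE 0.06) for Irf8. In none of these 8 pairs did the values of the libraries overlap between the clusters. With only 2 values per cluster this says little, and the share of all genes without overlap was not counted. The background was large: the test called 32.8% of all genes against Multi-Lin, 14.4% against MP, 30.1% against Mono and 30.0% against Gran-1. Genes higher in IG2 made up 17.6%, 6.11%, 13.9% and 14.0% of all genes tested in these 4 comparisons, and genes lower in IG2 15.2%, 8.26%, 16.2% and 16.0%.

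Both transcripts were found together in many single IG2 cells. A Gfi1 UMI was present in 55.4% and 49.8% of the cells and an Irf8 UMI in 89.8% and 82.4%. Both were present in 81 of 166 female cells, which is 48.8% (41.0 to 56.7%), and in 131 of 329 male cells, which is 39.8% (34.5 to 45.3%). The product of the single shares is 49.7% and 41.1%, so at 1 UMI both transcripts met in about as many cells as independent detection gives. At least 2 UMIs of each were seen in 15.1% and 7.29% of IG2 cells, beside products of 16.2% and 10.5%. The male share was thus below its product at this cutoff, though its interval (4.73 to 10.7%) includes it. For reference, Gfi1 was found in 4.88% and 2.33% and Irf8 in 17.1% and 30.2% of the 41 and 43 erythroid (Eryth) cells. Their median depths were 12993 and 10904 UMIs against 25438 and 21638 in IG2. Whether these UMIs are background or transcripts of the Eryth cells was not tested.

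These shares depend on depth, and joint detection was not particular to IG2. Both transcripts were also present in 45.6% and 33.0% of MP cells, 41.3% and 26.0% of Gran-1 cells, 27.3% and 21.4% of Mono cells and 19.7% and 13.6% of Multi-Lin cells. After each cell had been thinned to 4000 UMIs, which left out no cell, both were found in 4.82% (2.1 to 9.27%) and 4.86% (2.80 to 7.78%) of IG2 cells. The thinned shares were 6.80% and 3.67% in MP, 4.67% and 3.49% in Mono, and 4.21% and 2.79% in Gran-1, whose intervals overlap those of IG2. Multi-Lin was lowest, at 1.31% (0.60 to 2.48%) and 1.97% (1.22 to 3.0%), and its intervals also overlap those of IG2, if narrowly. The single shares at equal depth differed more. Gfi1 was found in 13.3% and 11.9% and Irf8 in 44.6% and 41.3% of thinned IG2 cells. In Gran-1 the same shares were 25.2% and 23.6% for Gfi1 and 15.4% and 12.7% for Irf8, while in MP they were 9.39% and 6.30% for Gfi1 and 77.3% and 74.8% for Irf8. Multi-Lin had less of both, with 8.31% and 9.47% for Gfi1 and 19.1% and 17.8% for Irf8.

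**Figure D2:**
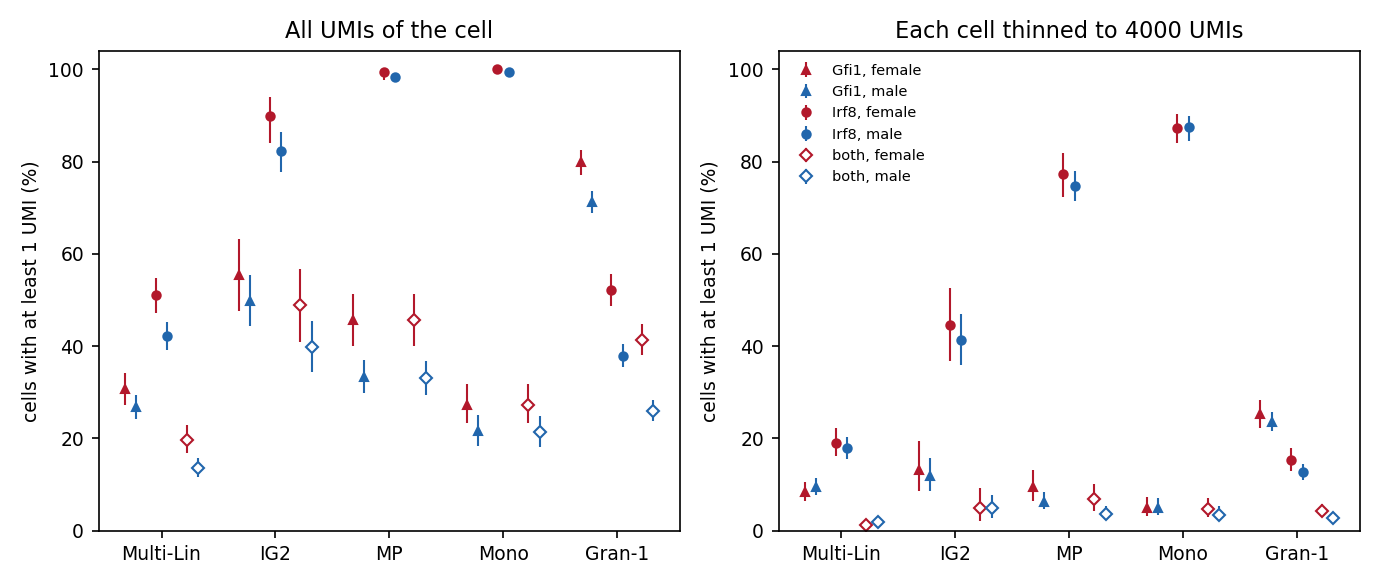
Share of cells (%) with at least 1 UMI of Gfi1 (triangles), Irf8 (filled circles) or both (open diamonds) in 5 clusters, female in red and male in blue, with exact 95% intervals, for all UMIs (left) and for cells thinned to 4000 UMIs (right). IG2 lies between Gran-1 and MP for each single gene, and its share of cells with both, 48.8% and 39.8%, falls to 4.82% and 4.86% at equal depth.

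The Irf8 signal was spread over the IG2 cells rather than held by a few. An IG2 cell carried a mean of 3.72 and 3.08 Irf8 UMIs (variance 9.0 and 8.76), with medians of 3 and 2, and the top 5 cells held 9.87% and 6.51% of all Irf8 UMIs. Gran-1 cells carried a mean of 1.48 and 0.990 with a variance of 7.60 and 4.74, and the largest count there was 19 in 1 cell. For Gfi1 the mean in IG2 was 0.861 and 0.720 UMIs per cell (variance 1.05 and 0.80), and the top 5 cells held 14.0% and 8.44%.

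IG2 cells were also split by which of the factors they showed. At 4000 UMIs, 14 female and 23 male cells showed Gfi1 alone, 66 and 120 Irf8 alone, 8 and 16 both, and 78 and 170 neither. Elane was at 6304 (5663 to 6997) and 6870 (6344 to 7427) CPM in cells with Gfi1 alone and at 5788 (5501 to 6086) and 5740 (5527 to 5958) CPM in cells with Irf8 alone. Mpo was at 7554 (6851 to 8309) and 8120 (7548 to 8723) CPM in the former and 7023 (6707 to 7350) and 7215 (6976 to 7459) CPM in the latter. For both genes the intervals overlapped in the female library and not in the male one. Sox4, a factor of immature progenitors, was at 143 (61.7 to 281) and 130 (67.4 to 228) CPM in the former. In the latter it was at 197 (147 to 258) and 196 (158 to 240), so the intervals overlapped in both libraries. Ly6c2, which encodes the surface protein Ly-6C, was at 946 and 902 CPM in cells with Gfi1 alone against 936 and 958 with Irf8 alone. Cells with neither factor had 128 and 124 CPM of Sox4 and 5587 and 6300 CPM of Elane. One UMI more or less moves a cell between these sets, so they are a description of counts and not of cell states.

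Among granulocyte regulators, IG2 had a Cebpe level close to that of Multi-Lin and above those of the monocytic clusters. Cebpe, a factor needed for granule maturation, was at 125 and 155 CPM in IG2, 128 and 137 in Multi-Lin, 68.0 and 59.0 in MP, 45.3 and 42.8 in Mono and 255 and 261 in Gran-1. It was higher in IG2 than in MP by 1.12 (SE 0.07) and than in Mono by 1.61 (SE 0.07), and lower than in Gran-1 by a log2 value of -0.96 (SE 0.06). Against Multi-Lin the fitted difference was 0.22 (SE 0.06, adjusted p = 0.0066), but without the scaling factors the female value of IG2 was the lower one. Scaling matters most in that comparison, since without it the log2 differences would shift by -0.118 against Multi-Lin, 0.0658 against MP, 0.0878 against Mono and 0.103 against Gran-1. Cebpa, which drives the first step into the granulocyte-monocyte lineage, was at 148 and 121 CPM and higher than in MP by 0.37, Mono by 0.36 and Gran-1 by 0.31 (SE 0.05 each). Its difference from Multi-Lin of -0.10 did not pass (adjusted p = 0.13).

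Of 9 granulocyte regulators tested, 4 were higher and none lower against MP (Gfi1, Cebpe, Cebpa and Lmo4). The count was 4 higher and 2 lower against Mono, 3 and 4 against Multi-Lin, and 2 and 5 against Gran-1. Gfi1b, the close relative of Gfi1 that acts in erythroid and megakaryocytic cells, was at 0 and 0.409 CPM in IG2 and at 13.7 and 13.3 CPM in Multi-Lin. Ets1 was at 1.87 and 0.955 CPM in IG2 and at 7.64 and 7.76 in Gran-1, a log2 difference of -2.66 (SE 0.29).

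Monocyte regulators were lower in IG2 than in Mono, mostly lower than in MP, and mixed against Multi-Lin and Gran-1. Klf4, a factor needed for classical monocytes, was at 10.0 and 4.23 CPM in IG2 and at 84.9 and 79.3 CPM in Mono, a difference of -3.75 (SE 0.13, adjusted p = 2.1e-21). It was also lower than in MP (18.6 and 17.1 CPM) by a log2 value of -1.53 (SE 0.18) and than in Multi-Lin by -0.98 (SE 0.19). Only 19.3% and 8.51% of IG2 cells had a Klf4 UMI. Irf5, an interferon regulatory factor of monocytes and macrophages, was at 5.60 and 5.05 CPM against 28.0 and 27.6 in Mono (difference -2.48, SE 0.17). Spi1, which encodes PU.1, varied little, from 215 to 296 CPM over the 5 clusters and both libraries. Against Mono all 9 monocyte regulators tested were lower in IG2, with a median of -1.06 beside a median of all genes near 0. Against MP 6 of 9 were lower and 1 higher, against Gran-1 5 were higher and 2 lower, and against Multi-Lin 4 were higher and 4 lower. Zeb2, a repressor needed in several myeloid lineages, was at 118 and 114 CPM in IG2, above Gran-1 (69.9 and 66.5) by 0.67 and below Mono (162 and 142) by a log2 value of -0.47 (SE 0.05 each).

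In monocyte genes IG2 lay between Multi-Lin and MP. The 20 genes of the list summed to 1726 and 1900 CPM in IG2, 904 and 992 in Multi-Lin, 4310 and 4517 in MP, 6554 and 6850 in Mono and 2985 and 3184 in Gran-1. Ly6c2 alone makes up most of the Gran-1 sum, so its place above IG2 does not hold for the list as a whole. Against Mono all 20 were lower in IG2 (median log2 difference -2.02). MP exceeded IG2 in 12 and none went the other way (median -0.71). Against Multi-Lin 12 were higher and 1 lower (median 0.91), and against Gran-1 13 were higher and 2 lower (median 0.80). Both exceptions in Gran-1 were Ly6c2 and Slpi, a secreted protease inhibitor.

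Ly6c2 stood at 853 and 973 CPM in IG2, 235 and 218 in Multi-Lin, 2848 and 2942 in MP, 3696 and 3822 in Mono and 2402 and 2587 in Gran-1. Its difference from MP, of -1.73 (SE 0.03), was among the 5 largest falls of that comparison at 50 CPM or more, together with Ctsh (-1.84), Ighm (-1.72), F13a1 (-1.64) and Irf8. F13a1, the coagulation factor XIII A chain that monocytes make, was at 55.5 and 52.4 CPM in IG2 against 306 and 289 in Mono. Csf1r, the receptor for macrophage colony-stimulating factor, was at 15.4 and 11.3 CPM, above Multi-Lin (8.25 and 6.52) and Gran-1 (5.48 and 5.30) and below MP (29.4 and 26.4) and Mono (53.7 and 46.9). All 4 of these Csf1r differences passed the test. Ms4a6c, a membrane protein gene of the monocyte list, was at 143 and 149 CPM against 39.1 and 39.2 in Gran-1 (difference 1.80, SE 0.05).

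Primary granule genes, which encode the contents of the first neutrophil granules, had already reached high levels in IG2. The 12 genes of the list summed to 25653 and 26883 CPM, against 14690 and 15808 in Multi-Lin, 28662 and 30602 in MP, 23823 and 25422 in Mono and 43646 and 47725 in Gran-1. Erythroid cells, which do not make these proteins, read 3987 and 3661 CPM. Against Multi-Lin 11 of 12 were higher in IG2 (median 0.83), the exception being Srgn, which encodes the granule proteoglycan serglycin. Against Gran-1 10 were lower (median -0.96) and against MP 10 were lower by small amounts (median -0.15).

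Elane was at 5805 and 6124 CPM in IG2, 1805 and 2069 in Multi-Lin, 7771 and 8408 in MP, 6171 and 6770 in Mono and 13226 and 15213 in Gran-1. It exceeded Multi-Lin by 1.74 and fell short of Gran-1 with a difference of -1.35 (SE 0.02 each). Mpo was more even, at 7027 and 7314 CPM in IG2 against 6898 and 7564 in MP, and the fitted difference of -0.08 (SE 0.02, adjusted p = 0.00055) is small beside 0.75 against Multi-Lin and -0.47 against Gran-1. Prtn3, which encodes proteinase 3, was at 4058 and 3972 CPM, with differences of 1.07 from Multi-Lin and -0.84 from Gran-1. Single cells differed in the same order. Between their quartiles, female IG2 cells had 14 to 29 Elane UMIs at 4000 UMIs, Multi-Lin cells 2 to 7, MP cells 22 to 39 and Gran-1 cells 41 to 65.

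Secondary granule genes, made later in neutrophil maturation, had small median differences, while single genes differed more. The lowest log2 differences, whether or not they passed, were -2.53 against Mono, -1.80 against Gran-1 and -1.62 against MP. The highest was 1.43, against Multi-Lin. Of 17 tested, 9 were higher and none lower against Multi-Lin (median 0.20), and 5 were lower and none higher against MP (median -0.13). Against Mono 12 were lower and 1 higher (median -0.38), and against Gran-1 13 were lower and none higher (median -0.26). Their 18 genes summed to 7883 and 5691 CPM in IG2, beside the 6412 and 7299 of erythroid and the 6350 and 8550 of megakaryocytic cells. In Gran-2 the sum was 37654 and 39438 CPM, and in Myelo-1 it was 189686 and 193724 CPM. Camp, which encodes the antimicrobial peptide precursor CRAMP, was at 941 and 623 CPM in IG2, 897 and 631 in Multi-Lin, 1019 and 640 in MP, 995 and 792 in Mono and 1019 and 654 in Gran-1. It passed all 4 tests, by 0.14 against Multi-Lin, -0.14 against MP, -0.30 against Mono and -0.20 against Gran-1 (SE 0.04 each), but against Multi-Lin the male value of IG2 was the lower one without the scaling factors. Erythroid cells read 757 and 870 CPM of Camp. Free RNA from neutrophil-lineage cells would give like values in all cells, and its part in these counts was not tested.

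Immature genes were still expressed in IG2 at levels above every more mature cluster compared. Of the 20 genes of the multipotent list, 18 were higher in IG2 than in MP and none lower (median 0.90), and 18 were higher and 1 lower against Mono (median 1.24). Against Gran-1 15 were higher and 1 lower (median 0.79). Multi-Lin exceeded IG2 in 17 of 20 (median -0.91), and Myb alone was higher in IG2. The summed level was 1502 and 1398 CPM in IG2, 2347 and 2299 in Multi-Lin, 939 and 893 in MP, 769 and 723 in Mono and 893 and 819 in Gran-1.

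Cd34 was highest in Multi-Lin (291 and 261 CPM), followed by IG2 (204 and 184), MP (123 and 115), Mono (105 and 98.7) and Gran-1 (56.0 and 44.7). The IG2 value differed from each of them, by -0.39 from Multi-Lin, 0.64 from MP, 0.84 from Mono and 1.86 from Gran-1 (SE 0.05 each). Sox4 was at 172 and 143 CPM in IG2, 335 and 395 in Multi-Lin and 80.3 and 77.8 in MP, with differences of -1.12 (SE 0.07) and 0.91 (SE 0.08). Hoxa9, a homeobox factor of immature progenitors, was at 29.4 and 24.8 CPM and its difference from Multi-Lin did not pass (-0.06, SE 0.10, adjusted p = 0.71). It was above MP by 1.40 (SE 0.13) and above Mono by 2.43 (SE 0.15). Meis1, its partner, was at 11.4 and 12.0 CPM and below Multi-Lin by a log2 value of -1.70 (SE 0.13). Cd27, a member of the TNF receptor family found on early progenitors, was at 100.5 and 87.0 CPM in IG2 against 47.0 and 40.6 in MP (difference 1.03, SE 0.07). Kit, which encodes CD117, was at 43.4 and 42.6 CPM, and only its difference from Multi-Lin missed the threshold (-0.10, SE 0.08, adjusted p = 0.32).

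**Figure D3:**
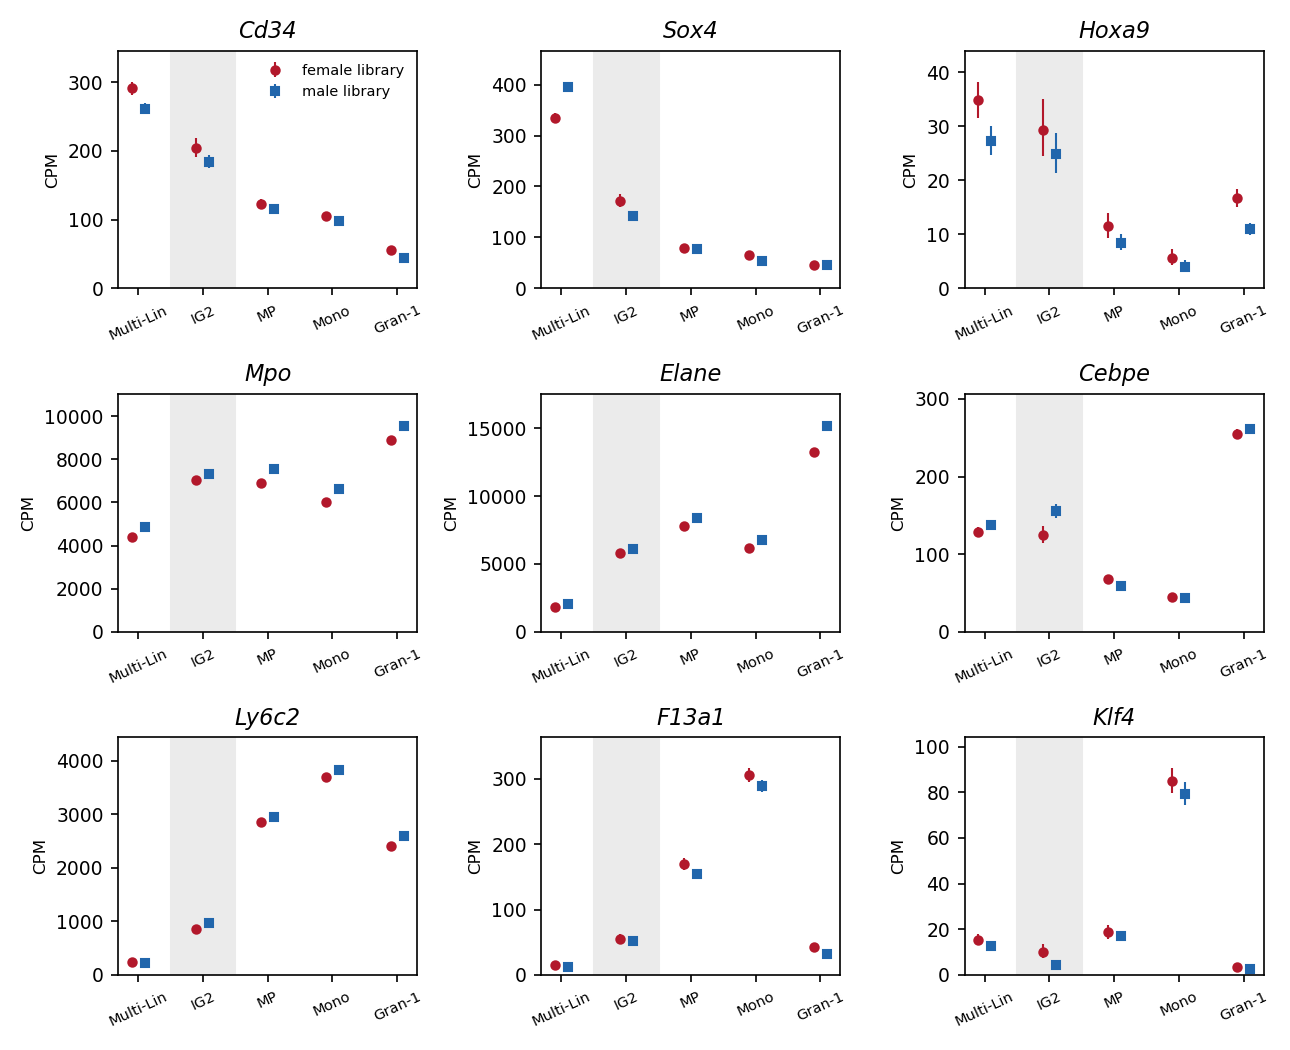
CPM (vertical, each axis from 0) of 9 genes in the summed cells of 5 clusters, female in red and male in blue, with exact Poisson 95% intervals; IG2 is shaded. Cd34, Sox4 and Hoxa9 are higher in IG2 than in MP, Mono and Gran-1, Elane is at 5805 and 6124, and Klf4 and F13a1 are far below Mono.

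Transcripts of the erythroid, megakaryocytic, eosinophil, basophil and mast cell lineages were lower in IG2 than in Multi-Lin. All 12 erythroid and megakaryocyte markers tested were lower in IG2 (median -2.90), and all 10 eosinophil, basophil and mast cell markers (median -3.01). Gata2, a factor of stem, mast and megakaryocytic cells, was at 8.63 and 11.1 CPM in IG2 and at 115 and 121 in Multi-Lin (difference -3.43, SE 0.10). Prss34, a basophil and mast cell protease, was at 12.1 and 14.7 CPM against 691 and 865 (-5.72, SE 0.22). Apoe, which encodes apolipoprotein E, was at 26.3 and 39.7 CPM against 378 and 499 (-3.58, SE 0.08). Cpa3, the mast cell carboxypeptidase, was at 33.6 CPM in female and 86.9 CPM in male IG2 cells. Against MP and Mono the eosinophil, basophil and mast cell list went the other way. Of its 10 genes tested, 5 were higher and none lower against MP, and 6 higher and none lower against Mono. A few cells carried much of some of these counts. The top 5 IG2 cells held 27.8% and 39.8% of the Mcpt8 UMIs and 31.3% and 15.4% of the Cpa3 UMIs, but 13.1% and 7.63% for Hdc. Ms4a2, called higher against Mono, was lower there in the female library (-0.27), and 5 male cells held 72.5% of its male UMIs. Against Gran-1 it was mixed, with 1 higher and 3 lower (median -0.41). Of the 12 erythroid and megakaryocyte markers, 4 were higher and 1 lower in IG2 against MP (median 0.60). Against Mono 4 of them were higher and none lower (median 0.81), and against Gran-1 1 was higher and 1 lower. The others did not pass.

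Markers of lymphoid cells, macrophages and dendritic cells were mixed against Multi-Lin. Il7r, Ebf1 and Cd3e had no UMI in either library, nor did Siglech and Cd209a. Nkg7, a granule protein gene of cytotoxic lymphocytes, was found in 99.4% of IG2 cells of both libraries, at 591 and 697 CPM, against 525 and 640 in Multi-Lin and 1480 and 1669 in Gran-1. Bst2, which encodes the antiviral protein tetherin, was at 150 and 148 CPM in IG2 and 126 and 129 in Multi-Lin. Both passed the test as higher in IG2 than in Multi-Lin, by 0.27 (SE 0.03) and 0.34 (SE 0.05). Of 6 lymphoid markers tested 1 was higher and 2 lower against Multi-Lin, of 6 dendritic cell markers 1 was higher and 3 lower, and of 7 macrophage markers 1 was higher and 3 lower. Against MP and against Mono, 2 dendritic cell markers were higher (H2-Ab1 and Tcf4) and none lower. Bst2 and Tcf4 were higher against Gran-1, and none was lower. Macrophage markers had none higher against these clusters, and 2 lower against Mono and 2 against Gran-1. For lymphoid markers 1 was lower against MP, 1 higher and 1 lower against Mono, and 2 lower against Gran-1. The 10 macrophage markers summed to 10.0 and 8.19 CPM in IG2, below the 31.0 and 47.0 CPM of erythroid cells.

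Growth and stress genes followed other lines. Of 12 ribosome biogenesis genes, 8 were higher in IG2 against Multi-Lin, 4 against MP, 10 against Mono and 9 against Gran-1, and none was lower. These differences were small, with medians from 0.10 (MP) to 0.36 (Mono). Ncl, which encodes nucleolin, was at 823 and 972 CPM in IG2 and at 561 and 620 in Mono. Immediate early and stress genes (14 tested) were lower in IG2 in 12 cases against Multi-Lin and in 12 against Mono, while 6 were higher against MP and 7 against Gran-1. Fos, an immediate early factor that responds to cell handling, was at 325 and 207 CPM in IG2, 648 and 518 in Multi-Lin and 267 and 184 in MP. Cell cycle genes differed by small amounts. Among 15 genes of S phase, 4 were higher and 1 lower against Multi-Lin, 3 and 2 against MP, 1 and 4 against Mono, and 7 and 1 against Gran-1, with medians from 0.00 (Mono) to 0.13 (Gran-1). Of 15 G2/M genes 5 were lower against MP, 9 against Mono, 7 against Gran-1 and 2 against Multi-Lin, while 1 was higher against Gran-1 and 1 against Multi-Lin. Their medians ran from -0.27 (Mono) to -0.05 (Multi-Lin).

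Interferon response genes were lower in IG2 than in Multi-Lin in 7 of 12 (median -1.01). Against MP 1 of 12 was higher and none lower. Ifitm3, a membrane protein against viral entry and that single gene, was at 318 and 308 CPM in IG2 and at 96.1 and 84.7 in Gran-1. Its relative Ifitm1 was at 120 and 123 CPM in IG2, 463 and 578 in Multi-Lin and 26.5 and 27.0 in Gran-1.

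Cytokine receptors did not move as a group. Flt3, the receptor of FLT3 ligand on early progenitors, was at 11.4 and 5.18 CPM in IG2, above MP by 1.52 (SE 0.24) and below Multi-Lin by a log2 value of -1.13 (SE 0.17). Csf3r, the receptor for G-CSF, was at 27.3 and 25.8 CPM and passed the test only against Gran-1, where it was higher (38.8 and 41.5 CPM). Csf2ra, a chain of the GM-CSF receptor, was at 35.0 and 32.7 CPM, below Mono (63.8 and 69.7) and Gran-1 (56.6 and 58.7). Of 16 receptors tested, 2 were higher (Kit and Flt3) and 4 lower against MP, and 6 and 7 against Multi-Lin.

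Over single genes, IG2 was closest to MP. Of genes with a mean of 50 CPM or more, 13 of 2262 differed at least 2-fold from MP in the same direction in both libraries. The number was 30 of 2299 for MDP, 41 of 2254 for Gran-1, 46 of 2373 for Multi-Lin and 49 of 2270 for Mono, and at least 124 for each of the other clusters. With cells thinned to 4000 UMIs it was again 13 for MP, then 34 for MDP, 42 for Mono, 45 for Gran-1 and 65 for Multi-Lin.

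IG2 was an intermediate between Multi-Lin and MP on this measure. None of 2319 genes was 1.5-fold above, or 1.5-fold below, both of them in both libraries. On a scale with Multi-Lin at 0 and MP at 1, built from genes 2-fold apart in one library and read in the other, the median gene of IG2 stood at 0.62 (female) and 0.64 (male), and 96.2% and 99.1% of the genes lay between the 2 clusters. An intermediate place was not particular to this pair. From Multi-Lin (0) to Gran-1 (1) the medians were 0.49 and 0.50, with 90.0% and 95.2% of genes between. From Multi-Lin to Mono they were 0.48 and 0.48, with 89.3% and 89.5% between. Above both clusters by 1.5-fold were 3 of 2318 and 4 of 2329 genes in these pairs, and 1 and 7 were below both. On the scale from Mono (0) to Gran-1 (1) the median was 0.53 and 0.55, over 94 and 93 genes. Genes higher in Gran-1 stood at 0.36 and 0.35, nearer to Mono, and genes higher in Mono at 0.57 and 0.64, nearer to Gran-1. At this 2-fold setting IG2 thus had less than the midpoint of both gene sets. Over the 10 and 11 genes that were 4-fold higher in Gran-1 the medians were 0.43 and 0.53, so there the male value was above the midpoint. From MP (0) to Gran-1 (1) the median was 0.11 and 0.14 over 45 and 39 genes, of which 31.1% and 25.6% lay below 0. It was 0.12 and 0.22 in thinned cells, and 0.30 and 0.46 over the 7 and 5 genes that were 4-fold apart.

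**Figure D4:**
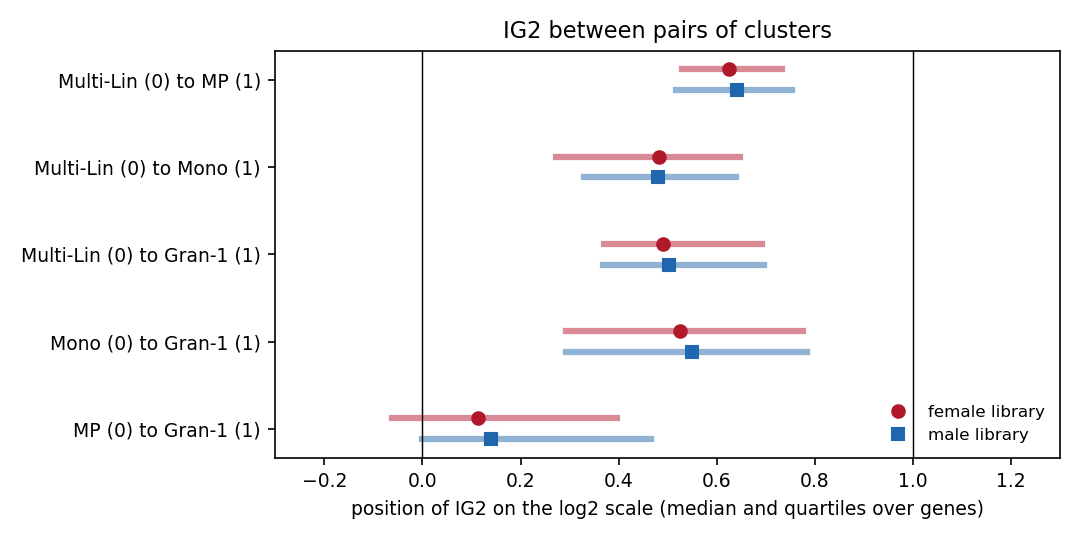
Position of IG2 on the log2 scale between pairs of clusters set to 0 and 1 (vertical lines), as the median (points) and quartiles (bars) over genes at least 2-fold apart in the other library, female in red and male in blue. The medians are 0.62 and 0.64 from Multi-Lin to MP and 0.53 and 0.55 from Mono to Gran-1, with wider quartiles.

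Between Gran-1 and Mono, 10 of 2253 genes were 1.5-fold above both in both libraries, and 11 were below both. Those above were Cd34, Sox4, Cd27, Lmo2, Ifitm1, Dapp1, Tmem176a, Tmem176b, Trf and Mospd3, of which Multi-Lin had more in each but Mospd3 by the fit. Tmem176b, which encodes an ion channel of immature myeloid cells, was at 191 and 182 CPM in IG2, 74.7 and 68.7 in Gran-1 and 77.7 and 63.2 in Mono. Those below included Ly6c2, Cebpb, Csf2ra, Hp, Cyba and Dstn. Cebpb, a factor of emergency granulopoiesis and of monocytes, was at 105 and 114 CPM in IG2, 170 and 178 in Gran-1 and 281 and 301 in Mono. Clec4a2, a lectin receptor gene, was at 12.8 and 11.3 CPM against 80.4 and 109 in Gran-1, a difference of -3.13 (SE 0.11), the largest fall of that comparison at 50 CPM or more.

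IG2 had no gene that it alone expressed strongly. Of 2307 genes at 50 CPM or more, 53 were highest in IG2 of all 17 clusters in both libraries, but by small ratios. The first, Ydjc, was at 77.0 and 78.2 CPM, 1.21 and 1.31 times the next cluster. The next 9 were Eif1a, Cd320, Chchd4, Calr, Fkbp4, Exosc5, Erh, Srm and Wdr18. Calr, which encodes the chaperone calreticulin, was at 2265 and 2521 CPM, 1.10 and 1.11 times Gran-1. Srm, spermidine synthase, was at 344 and 342 CPM, 1.13 and 1.08 times MP.

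The antibody tags are a measure that is separate from the RNA counts, and by median Ly-6C counts IG2 was nearer to Multi-Lin than to MP, Mono or Gran-1. The median Ly-6C count was 996.5 in female and 768 in male IG2 cells, 918.5 and 671.5 in Multi-Lin, 5525 and 3434.5 in MP, 12083 and 6974.5 in Mono and 2761 and 2257 in Gran-1. It was 5.54-fold and 4.47-fold lower than in MP, and 1.08-fold and 1.14-fold higher than in Multi-Lin. The quartiles of IG2 (868 to 1454 in the female cells) lay below those of MP (2623 to 13622) and overlapped those of Multi-Lin (807 to 1134.5). Over Multi-Lin, Ly6c2 RNA was higher in IG2 by 2.14 (SE 0.03) on the log2 scale, whereas the log2 ratio of median Ly-6C counts was 0.156. The level of unbound antibody in these counts was not measured. Within IG2, cells with more Ly6c2 UMIs had more Ly-6C counts (Spearman's rho 0.48 in 166 female and 0.51 in 329 male cells). These counts were not thinned, so depth differed between cells, and its part in the correlation was not tested. The other antibodies followed their own genes less, with rho of 0.06 and 0.23 for CD117 with Kit. It was 0.06 and -0.03 for CD11b with Itgam, and 0.10 and 0.03 for Ly-6G with Ly6g. Itgam was found in 11.4% and 8.51% of the cells and Ly6g in 12.0% and 7.29%.

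The CD117 median was 306 and 187 in IG2, 357 and 206 in Multi-Lin, 237 and 129.5 in MP, 131 and 74 in Mono and 298 and 172 in Gran-1. IG2 was thus 2.34-fold and 2.53-fold above Mono and within 1.2-fold of Multi-Lin and Gran-1. CD11b, an integrin of mature myeloid cells, was at 129 and 75, against 139 and 87 in Multi-Lin and 314 and 206 in Gran-1. For Ly-6G, found on neutrophils, IG2 had medians of 88 and 76, Multi-Lin of 149 and 132, and Gran-1 of 94 and 75. With 2 libraries an exact permutation test cannot reach 0.05, so no p is given. Female counts were higher than male ones for each antibody in IG2.

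**Figure D5:**
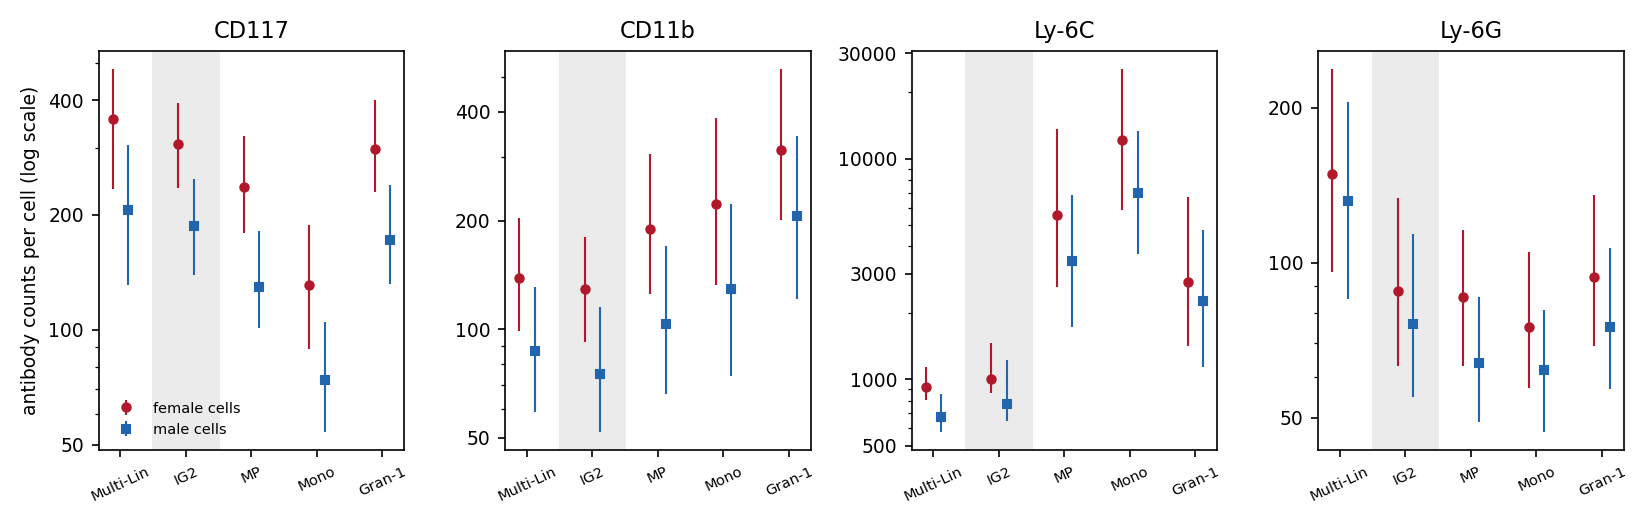
Antibody counts per cell (log scale) for CD117, CD11b, Ly-6C and Ly-6G in 5 clusters, as the median (points) and quartiles (bars) of female (red) and male (blue) cells; IG2 is shaded. Ly-6C in IG2, 996.5 and 768, is close to Multi-Lin and below MP, Mono and Gran-1.

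The depth of IG2 cells was near that of MP and Gran-1. Their median was 25438 and 21638 UMIs, below Gran-1 (27601.5 and 22359) and MP (27908 and 23120) and above Multi-Lin (17137.5 and 13805). Cells over 2 times the library median made up 1.81% and 1.52% of IG2, against 4.93% and 2.79% of Gran-1, 5.18% and 3.96% of MP, 1.78% and 1.83% of Mono and 0.146% and 0.188% of Multi-Lin. Doublets were not searched for here, and their removal by the authors was not given in the sources used here. Of 45 barcodes found in both libraries, 7 IG2 cells carried one, and without such cells the share of IG2 cells with both factors was 44.6% against 44.3%, as means of the libraries. Each IG2 sum held 4288100 and 7329774 UMIs.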

How the data were processed

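Transcripts and 4 antibody tags were measured in sorted marrow cells of 1 female and 1 male library. Per the submitters' processing notes, Cell Ranger 2.1.0 and mm10 were used. Which annotation, cell caller and clustering were used was not given in the sources used here. Deposited by the authors were raw UMI counts for 28692 gene IDs (28339 with a symbol) in 11132 cells, a cluster name per cell, and antibody counts. Antibody values deposited as natural log (ln) numbers are log shares: each equals ln of its count plus 1, divided by the cell's total plus 1, to within 5.0e-10.

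The ending of a cell's name gave its library. No cell was left out, and the lowest count was 4373 UMIs. UMIs were summed per cluster and library, giving 10 sums of 5 clusters, and fitted with TMM scaling, filterByExpr and the library as a term by the quasi-likelihood test of edgeR 4.0.16 (R 4.3.3, 4 residual degrees of freedom). The term pairs sums of the same library. Standard errors were derived from the log2 fold change and F. The number of mice is not given, so p-values measure only how alike the libraries were. On simulated counts 72.2% of 2-fold changes against MP and 82.8% against Gran-1 were recovered, with 3 false calls among 10965 and 11 among 10988 unchanged genes. The recovered shares rest on 72 changed genes against MP and 64 against Gran-1. Whether these rates hold for the deposited counts was not tested. Python 3.11.15 was used for shares and intervals (exact Clopper-Pearson and Poisson, 95%).

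Members and lists were chosen with earlier results of these data known. Named genes are Gfi1, Irf8, Cd34, Mpo, Cebpe, Cebpa, Klf4, Csf1r, Elane, Sox4 and Kit, the 3 highest members of each list, the 5 largest changes each way at 50 CPM or more, and the 10 genes highest and up to 5 lowest in IG2 (4 were found). This gave 95 genes, of which 94 are reported here. Others are named from complete lists, or after their values were seen. Of the list genes, Cebpd was not in the table. Alternatives were DESeq2 1.42.0 as a test and as size factors, no filter, no library term, 2 or 15 clusters, thinned cells, each library alone, other antibody scales and no shared barcodes, the last chosen after seeing the data.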

Additional observations from a re-analysis of the deposited data

Results flagged for a closer look

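For 4 genes the female and the male library gave differences of opposite sign, and the difference between the libraries was not tested. Retnlg, a gene of mature neutrophils, differed from Multi-Lin on the log2 scale by -0.15 (female) and 1.18 (male), and from Gran-1 by -0.46 and 1.45. Csrp3, which encodes a muscle LIM protein, differed from MP by -0.12 and 1.83. Ms4a2, a chain of the IgE receptor of mast cells and basophils, differed from Mono by -0.27 and 1.66. Ube2c, a ubiquitin-conjugating enzyme of mitosis, differed from Mono by -0.48 and 0.01. In the male library 5 of 329 IG2 cells held 75.5% of the Retnlg, 72.5% of the Ms4a2 and 65.0% of the Csrp3 UMIs, and for Ube2c the share was 13.1%.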

How the results depend on the processing

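The 3760 genes that passed against Multi-Lin, 1646 against MP, 3453 against Mono and 3433 against Gran-1 became 2348, 904, 2163 and 1981 with DESeq2, and 1560, 366, 1146 and 1044 with cells thinned to 4000 UMIs. With no replicate block, that is without the pairing of sums by library, they were 2478, 584, 2204 and 1957, and with all 15 clusters of at least 20 cells per library MP gave 1077. The other alternatives moved no count by over 1.5 times. Within 1 library there were no residual degrees of freedom, so these counts have no value without a library. Of 293 differences of the 94 named genes reported here that passed, 97 lost the call under at least 1 tested alternative. In 1 library alone 5 changed sign: Retnlg read -0.148 (female) and 1.18 (male) against Multi-Lin and -0.461 and 1.45 against Gran-1, Csrp3 -0.124 and 1.83 against MP, Ms4a2 -0.265 and 1.66 and Ube2c -0.48 and 0.0141 against Mono.

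The share of IG2 cells with both factors, 44.3% as a mean of the libraries, was 4.84% in thinned cells and 11.2% with at least 2 UMIs of each, and 39.8 to 48.8% in single libraries. The position between Mono and Gran-1, 0.537, was 0.572 for genes 4-fold apart and 0.509 in thinned cells, and 0.525 to 0.549 in single libraries. Antibody differences depended on the scale, since the 4 shares of a cell sum to 1. For CD117 the difference of log shares, of values centred within the cell, and of log2 median counts were -0.122, 0.0564 and -0.181 against Multi-Lin (single libraries -0.150 to -0.0949), 1.52, 0.648 and 0.449 against MP (1.42 to 1.62), 2.71, 1.29 and 1.28 against Mono (2.59 to 2.82), and 0.904, 0.516 and 0.0794 against Gran-1 (0.893 to 0.914, and 0.921 without shared barcodes). For Ly-6C they were 0.136, 0.315 and 0.156 against Multi-Lin (0.126 to 0.146), -0.270, -1.14 and -2.32 against MP (-0.296 to -0.244), -0.330, -1.75 and -3.39 against Mono (-0.36 to -0.30), and -0.135, -0.523 and -1.51 against Gran-1 (-0.140 to -0.130). CD11b changed sign to -0.508 by median counts against MP, to -0.143 centred and -0.786 by median counts against Mono, and against Gran-1 it was 0.00910 in female and -0.115 in male cells. Ly-6G changed sign to -0.0380 by median counts against Gran-1. The cause of these changes was not tested. Depth limits genes with under 1 UMI per IG2 cell, such as Gfi1, Klf4 and Csf1r.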
